A study of Mus musculus with 6 samples.

Results

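The CXC chemokines considered here are 10 genes of the 39179 in the deposited count table: Ppbp, Pf4, Cxcl1, Cxcl2, Cxcl3, Cxcl5, Cxcl9, Cxcl10, Cxcl14 and Cxcl16. They were chosen by symbol, with results of the same comparison already known (Ppbp was among the genes called lower), so their fold changes are given as a description, with no test. RNA was sequenced from tumor-associated macrophages (TAMs) sorted by flow cytometry from tumors of a BRAF-mutant mouse melanoma line. The tumor cells were either parental (Ptgs+/+) or lacked both Ptgs1 and Ptgs2 (Ptgs-/-), the genes for the cyclooxygenases COX-1 and COX-2 that start prostaglandin synthesis, and the edit was made by CRISPR in the tumor line. All hosts were C57BL/6 mice aged 8 weeks, so the sorted macrophages carried the host's intact Ptgs genes in both groups. Each group had 3 libraries, each from a pool of tumors, made from 800 pg of RNA. The gate kept live CD45+ CD11b+ F4/80+ cells with no or dim Ly6C and, by the study's methods, without Ly6G or NK1.1.

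CXC chemokines are small secreted proteins that guide leukocytes through G protein-coupled receptors. Members with a glutamate-leucine-arginine (ELR) stretch before the first cysteines, which include Cxcl1, Cxcl2, Cxcl3, Cxcl5 and the processed product of Ppbp, attract neutrophils through Cxcr2. Cxcl9 and Cxcl10 are induced by interferons and attract T and NK cells through Cxcr3. Pf4 and Ppbp are best known as cargo of platelet granules, Cxcl16 is a membrane-bound ligand of Cxcr6, and Cxcl14 is made mainly by epithelial and stromal cells.

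Of the 10 genes, 8 lie on chromosome 5 of GRCm38. Cxcl5, Ppbp, Pf4, Cxcl3, Cxcl1 and Cxcl2 follow each other on the plus strand within 146.6 kb, and the end of Ppbp and the start of Pf4 are 2371 bases apart. Ppbp (ENSMUSG00000029372) spans 90768518 to 90770063 and Pf4 (ENSMUSG00000029373) spans 90772435 to 90773383. Cxcl2 (ENSMUSG00000058427) spans 90903871 to 90905938. Cxcl9 and Cxcl10 lie on the minus strand, the nearer of them 1415 kb beyond Cxcl2, with Cxcl10 (ENSMUSG00000034855) at 92346638 to 92348889. Cxcl14 is on chromosome 13 and Cxcl16 on chromosome 11. All 10 are annotated as protein coding. Cxcl10 overlaps Art3 and Cxcl16 overlaps Zmynd15, both on the opposite strand, and Art3 had 0 counts in all 6 libraries.

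The promoters of the neighbors Ppbp and Pf4 are shown because both genes were lower in TAMs from Ptgs-/- tumors, and that of Cxcl10 because it was higher. Sequences are from RefSeq (GRCm38.p6), cover the 250 bases before the RefSeq start, and are written in the direction of the gene. Capitals mark matches to 5 patterns searched on both strands. These were an interferon response element-like pattern (GAAA, 2 free bases, GAAA), an interferon gamma-activated site-like TTCNNNGAA, 2 NF-κB-like patterns and the cyclic AMP response element TGACGTCA. The stricter NF-κB-like pattern was GGG, 2 free bases and TTTCC, and the looser one was GGG, 3 free bases and TTCC, so that every match of the stricter is also one of the looser. Ppbp is chr5:90768268-90768517 (plus), Pf4 chr5:90772185-90772434 (plus) and Cxcl10 chr5:92348890-92349139 (minus).
Ppbp: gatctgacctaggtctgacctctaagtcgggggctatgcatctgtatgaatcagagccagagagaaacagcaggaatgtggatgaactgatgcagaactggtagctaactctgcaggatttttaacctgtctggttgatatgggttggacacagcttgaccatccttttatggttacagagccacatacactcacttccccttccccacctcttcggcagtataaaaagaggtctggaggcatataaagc
Pf4: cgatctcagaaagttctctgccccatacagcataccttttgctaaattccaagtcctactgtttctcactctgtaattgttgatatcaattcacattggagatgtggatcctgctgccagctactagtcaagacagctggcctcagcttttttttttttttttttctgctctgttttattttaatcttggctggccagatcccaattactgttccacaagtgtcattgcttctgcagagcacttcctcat
Cxcl10: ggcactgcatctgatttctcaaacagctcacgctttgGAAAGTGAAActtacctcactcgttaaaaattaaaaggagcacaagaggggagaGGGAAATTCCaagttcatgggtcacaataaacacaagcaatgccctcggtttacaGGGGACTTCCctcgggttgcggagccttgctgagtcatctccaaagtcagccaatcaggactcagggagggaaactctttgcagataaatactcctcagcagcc

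The patterns were present in 2.98%, 7.02%, 1.41%, 4.65% and 1.55% of 32851 promoter windows of the same length, in the order given. Ppbp, Pf4 and Cxcl9 held none of them in these windows. Cxcl10 held the interferon response element-like pattern 213 to 204 bases before its start and 2 matches of the looser NF-κB-like pattern. Cxcl14 also held the interferon response element-like pattern, 172 to 163 bases before its start, and it was the only one of the 8 with the TTCNNNGAA pattern, at 191 to 183 bases. Cxcl1, Cxcl2 and Cxcl3 shared the same 10 bases, which match the stricter NF-κB-like pattern and which 28 of the 32851 windows hold (0.0852%). The 10 bases were picked from these 3 promoters, which are among the windows counted, so the share is not an independent background. Stretches of 40 bases around the match are shown with the 10 bases in capitals. They lie at chr5:90891159-90891198, chr5:90903787-90903826 and chr5:90786013-90786052, all plus, and the match starts 71, 97 and 73 bases before the RefSeq start, which for these 3 genes is not the GENCODE start. Promoters were matched for 8 of the 10 genes, all but Cxcl5 and Cxcl16. A match describes letters and not a bound site.
Cxcl1: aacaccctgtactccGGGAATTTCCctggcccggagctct
Cxcl2: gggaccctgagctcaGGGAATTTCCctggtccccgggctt
Cxcl3: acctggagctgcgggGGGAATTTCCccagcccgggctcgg

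The libraries held between 4431184 and 8760679 counts, and 8793 genes passed the filter on low counts. Levels are CPM, counts relative to the library total, scaled by TMM, an edgeR factor that corrects for library composition. Reads came from the 3′ end of transcripts, so a level does not grow with transcript length. Libraries of a group differed strongly (common biological coefficient of variation 1.26). Ptgs+/+ replicate 3 stood apart: its 12 macrophage markers summed to 6706 CPM, against 17650 and 18624 CPM in replicates 1 and 2 and 22127 to 26248 CPM in the Ptgs-/- libraries. Cd68 had 123 counts in it, where the other libraries had 2465 to 3426. Csf1r, the receptor that macrophages need for survival, had 1070 counts there and 6010 to 9498 in the other 5. Adgre1, which encodes the F4/80 antigen of the gate, was present in every library with 403 to 3625 counts. Without this library the log2 difference of the macrophage sum was 0.38, against 0.86 with it, and the chemokine values below are also given without it.

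Ppbp and Pf4 were at lower levels in TAMs from Ptgs-/- tumors, Cxcl2 and Cxcl10 were at higher levels there, and Cxcl1 differed by less than its SE. Whether a fit called a chemokine is given as a description of that fit. Only Ppbp was called, 1 of the 7 chemokines with enough counts to be fitted. A call in the edgeR quasi-likelihood test needed both an FDR no higher than 0.05 and a log2 fold change of at least 1.5 in size, which was met by 19 of 8793 genes (0.216%), of which 5 were lower (0.0569%). The group ranges in CPM were separate for 4 of the 7 fitted chemokines (Ppbp, Pf4, Cxcl2 and Cxcl10), and for 19.0% of all genes tested. Because the genes were chosen with this comparison known, nothing is read from these counts. The plot of levels by library shows all 10 genes.

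**Figure D1:**
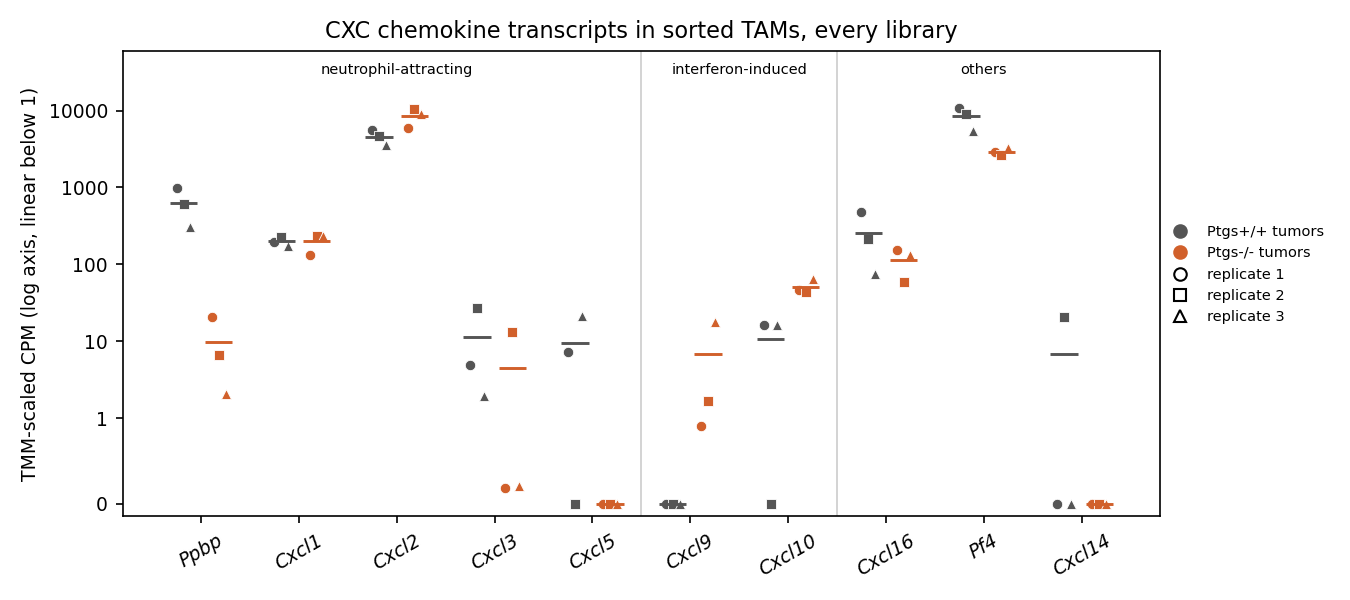
TMM-scaled CPM of each CXC chemokine (log axis, linear below 1) in 3 libraries from Ptgs+/+ and 3 from Ptgs-/- tumors; points are libraries and horizontal lines are group means. Ppbp stood at 308 to 972 CPM in Ptgs+/+ and 2.07 to 21.0 CPM in Ptgs-/- libraries, while Cxcl2 and Pf4 stood at 2612 CPM or more in every library.

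Ppbp, the precursor of the platelet basic proteins and of the neutrophil attractant NAP-2, had 6097, 3683 and 1429 counts in Ptgs+/+ replicates 1, 2 and 3. It had 115, 55 and 10 counts in the Ptgs-/- libraries. Every Ptgs-/- library lay far below every Ptgs+/+ library. The mean was 628 ± 332 CPM (SD, n = 3) in Ptgs+/+ and 9.87 ± 9.88 CPM (SD, n = 3) in Ptgs-/- libraries, and the fitted log2 fold change was -5.99 ± 0.85 (SE). Ranked by level within its library, Ppbp was gene 143, 209 and 458 in the Ptgs+/+ libraries and gene 5061, 7988 and 8721 in the Ptgs-/- libraries. Without Ptgs+/+ replicate 3 the log2 fold change was -6.27 and the gene passed the thresholds. Without any one of the other 5 libraries it did not pass them, at log2 fold changes of -7.12 to -5.51.

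Pf4, platelet factor 4, which lacks the ELR stretch and is not a classical neutrophil attractant, was among the most abundant transcripts of these cells. It had 68080, 55805 and 25449 counts in the Ptgs+/+ libraries and 15716, 21933 and 15693 in the Ptgs-/- libraries. In CPM the groups did not overlap, with 10851, 9159 and 5486 CPM against 2868, 2612 and 3247 CPM. It ranked 7, 6 and 15 in the Ptgs+/+ libraries and 34, 44 and 38 in the Ptgs-/- libraries. The log2 fold change was -1.55 ± 0.35 (SE), and the quasi-likelihood test did not call it. The likelihood ratio test of edgeR and the Wald test of DESeq2 both did, tests that called 1.19% and 1.76% of all genes lower. Without Ptgs+/+ replicate 3 its log2 fold change was -1.73, and it passed the thresholds.

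Although Ppbp and Pf4 are neighbors, their differences were of very different size. There were 11.2, 15.2 and 17.8 Pf4 counts for each Ppbp count in the Ptgs+/+ libraries, and 137, 399 and 1569 in the Ptgs-/- libraries. A ratio within a library is independent of scaling, and all 3 Ptgs-/- ratios exceeded all Ptgs+/+ ratios. Relative to the summed macrophage markers, Pf4 stood at 615, 492 and 818 per 1000 CPM of markers in the Ptgs+/+ libraries and at 127, 118 and 124 in the Ptgs-/- libraries. On that scale, chosen after the data were seen, Ptgs+/+ replicate 3 had the highest Pf4 value of all libraries, and Ppbp stood at 32.5 to 55.1 in Ptgs+/+ and at 0.0788 to 0.930 in Ptgs-/- libraries.

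Markers of platelets and blood were examined beside these genes, since Ppbp and Pf4 are abundant in platelets. Of 20 platelet and megakaryocyte markers, 11 had 0 counts in all 6 libraries, among them Gp9, Gp1ba, Gp6 and Tubb1. Itga2b, the platelet integrin, was counted in Ptgs+/+ replicate 3 alone, with 76 counts, and Selp there alone with 41. Itgb3, the partner of that integrin, which macrophages can also make, had 218, 701 and 79 counts in the Ptgs+/+ and 0, 73 and 24 in the Ptgs-/- libraries (log2 fold change -3.60, edgeR adjusted p 0.652). The full list summed to 915 to 2154 CPM in the Ptgs+/+ and 3809 to 4154 CPM in the Ptgs-/- libraries. That sum was mostly F13a1, a transglutaminase that macrophages also express, at 707 to 1961 against 3686 to 4012 CPM (log2 fold change 1.53, edgeR adjusted p 0.190). Without F13a1, Thbs1 and Rgs18, all also made by monocytes or macrophages, the remaining 17 summed to 48.8, 130 and 55.0 CPM in the Ptgs+/+ and 7.48, 23.7 and 5.38 CPM in the Ptgs-/- libraries. Itgb3 made up most of it in Ptgs+/+ replicates 1 and 2 and in Ptgs-/- replicate 3 alone, and without Itgb3 as well the sums overlapped, at 14.03, 15.1 and 37.9 against 7.48, 15.0 and 0.414 CPM. Both choices of genes were made after the data were seen. Without Itgb3, nearly all of the Ptgs-/- sums was Vwf, at 6.75, 15.0 and 0.414 CPM against 0.478, 0 and 0 CPM in the Ptgs+/+ libraries. Nrgn went the other way, with 5, 92 and 59 counts in the Ptgs+/+ and 0, 0 and 0 in the Ptgs-/- libraries. Vwf and Nrgn were named after their values were seen.

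Summed hemoglobin and other erythroid transcripts were also at lower levels in Ptgs-/- libraries. The 6 erythroid markers summed to 225 to 698 CPM in the Ptgs+/+ and 18.2 to 125 CPM in the Ptgs-/- libraries, with Alas2 at 0 in all. Hbb-bs, an adult beta-globin, had 1927, 2821 and 532 counts against 0, 695 and 51 (log2 fold change -3.24, edgeR adjusted p 0.515; -5.81 without Ptgs-/- replicate 2). Hba-a1, an alpha-globin, had 1084, 384 and 246 against 0, 43 and 231 (log2 fold change -2.45, edgeR adjusted p 0.864; -5.20 without Ptgs-/- replicate 3). Its nearly identical copy Hba-a2, which can share its reads, had 427, 208 and 154 against 100, 174 and 131. Hbb-bt, the other adult beta-globin, had 943, 402 and 113 counts against 0, 139 and 161, with overlap in CPM. The part of platelets or blood in the levels of Ppbp and Pf4 was not tested, and in pooled RNA fewer cells of a type cannot be told apart from less RNA per cell.

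Among the neutrophil attractants besides Ppbp, Cxcl2 was the most abundant, and its levels were higher in Ptgs-/- libraries, while those of Cxcl1 overlapped. Cxcl2, also called MIP-2, had 34878, 28389 and 16577 counts in the Ptgs+/+ libraries and 32859, 88256 and 43549 in the Ptgs-/- libraries. In CPM these were 5559, 4659 and 3573 against 5996, 10510 and 9012. The groups did not overlap, but Ptgs+/+ replicate 1 and Ptgs-/- replicate 1 lay close together. The log2 fold change was 0.89 ± 0.35 (SE). It ranged from 0.71 to 1.12 over the 12 alternative fits, and it was 0.78 without Ptgs+/+ replicate 3. A call needed a size of at least 1.5, so none of these fits could call Cxcl2, whatever its p-value. Divided by the summed macrophage markers, a scale chosen after the data were seen, the mean log2 difference was 0.015 rather than 0.87, and the groups overlapped.

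Cxcl1, or KC, had 1221, 1391 and 811 counts in the Ptgs+/+ libraries and 736, 1985 and 1143 in the Ptgs-/- libraries. The levels of 175 to 228 CPM and 134 to 236 CPM overlapped. The log2 fold change was 0.023 ± 0.38 (SE), and its sign changed in 6 of the 12 alternative fits, which ranged from -0.10 to 0.28. Without Ptgs+/+ replicate 3 it was -0.011. There were 28.6, 20.4 and 20.4 Cxcl2 counts for each Cxcl1 count in the Ptgs+/+ libraries, and 44.6, 44.5 and 38.1 in the Ptgs-/- libraries. Cxcl2 was thus higher relative to Cxcl1 in each Ptgs-/- library, a ratio that no scaling between libraries can alter.

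Cxcl3 and Cxcl5 were near the limit of detection. Cxcl3 had 31, 164 and 9 counts in the Ptgs+/+ libraries and 1, 111 and 1 in the Ptgs-/- libraries, with both replicates numbered 2 highest. Its log2 fold change was -1.31 ± 2.46 (SE) and turned to 0.40 without Ptgs+/+ replicate 2, and it was -1.73 without Ptgs+/+ replicate 3. Its longest coding transcript shares an identical run of 110 bases with that of Cxcl2, which lies 850 bases from the 3′ end of Cxcl3 and 1687 bases from that of Cxcl2, away from the 3′ ends that were sequenced. Cxcl5 had 46, 0 and 100 counts in the Ptgs+/+ libraries and 0 in all Ptgs-/- libraries. Its Ptgs+/+ mean was at least 18.9-fold higher than a floor of 3 counts in each Ptgs-/- library, although Ptgs+/+ replicate 2 was also at 0. Without Ptgs+/+ replicate 3, which held 100 of the counts, that bound was 7.21-fold. Such floors cover counting error only, since PCR copies of a molecule cannot be told from separate molecules.

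The interferon-induced chemokines were at low levels, and both were higher in every Ptgs-/- library than in any Ptgs+/+ library. Cxcl10, or IP-10, had 103, 0 and 75 counts in the Ptgs+/+ libraries and 254, 369 and 309 in the Ptgs-/- libraries. These were 16.4, 0 and 16.2 CPM against 46.3, 43.9 and 63.9 CPM. The log2 fold change was 2.24 ± 1.61 (SE), not called in any of the 12 alternative fits, which ranged from 1.66 to 3.99, and it was 2.67 without Ptgs+/+ replicate 3. Cxcl9, or MIG, had 0 counts in all Ptgs+/+ libraries and 5, 14 and 86 in the Ptgs-/- libraries. It was at least 12.6-fold higher than a floor of 3 counts in each Ptgs+/+ library, and most of its counts came from Ptgs-/- replicate 3, without which the bound was 2.39-fold. Cxcl9 had too few counts to be fitted.

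**Figure D2:**
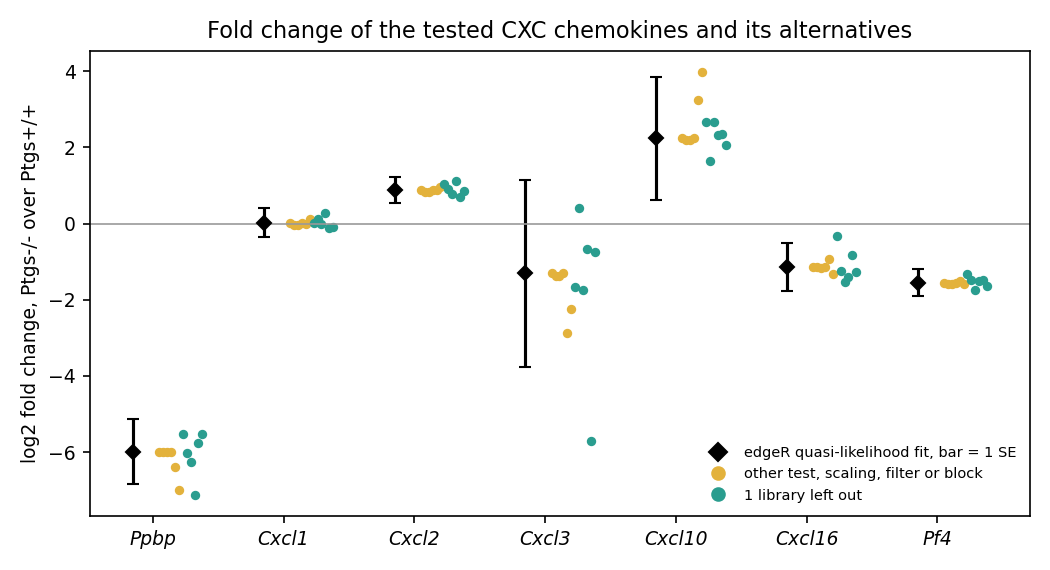
log2 fold change (Ptgs-/- over Ptgs+/+) of the 7 fitted chemokines; diamonds are the edgeR quasi-likelihood fit with bars of 1 SE, and dots are 12 alternatives, 6 with another method and 6 with 1 library left out. Ppbp, at -5.99, and Pf4, at -1.55, stayed below 0 in all, Cxcl2 and Cxcl10 stayed above 0, and Cxcl1 and Cxcl3 took both signs.

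Cxcl16, the membrane-bound ligand of Cxcr6 that macrophages also make, varied widely within the Ptgs+/+ group. It had 2975, 1308 and 344 counts in the Ptgs+/+ libraries and 843, 488 and 649 in the Ptgs-/- libraries. The levels of 74.2 to 474 CPM and 58.1 to 154 CPM overlapped, with Ptgs+/+ replicate 3 inside the Ptgs-/- range. Per 1000 CPM of summed macrophage markers, the scale chosen after the data were seen, Cxcl16 stood at 26.9, 11.5 and 11.1 against 6.81, 2.63 and 5.12, without overlap. The log2 fold change was -1.14 ± 0.64 (SE), with -1.54 without Ptgs+/+ replicate 3 and -0.32 without Ptgs+/+ replicate 1. Cxcl14 was counted in 1 library alone, Ptgs+/+ replicate 2, with 125 counts.

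Pf4 took the largest share of the CXC transcripts in every Ptgs+/+ library and Cxcl2 in every Ptgs-/- library. Pf4 made up 60.0%, 61.4% and 56.8% of the counts of the 10 genes in the Ptgs+/+ libraries and 31.1%, 19.4% and 25.5% in the Ptgs-/- libraries. Cxcl2 made up 30.7%, 31.2% and 37.0% against 65.0%, 78.0% and 70.9%. Ppbp made up 3.19% to 5.38% against 0.0163% to 0.228%. In the Ptgs+/+ libraries there were 1.95, 1.97 and 1.54 Pf4 counts for each Cxcl2 count, and in the Ptgs-/- libraries 0.478, 0.249 and 0.360, so that the groups did not overlap. Together the 10 genes were 1.01% to 1.71% of all counts in the Ptgs+/+ and 0.962% to 1.29% in the Ptgs-/- libraries.

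**Figure D3:**
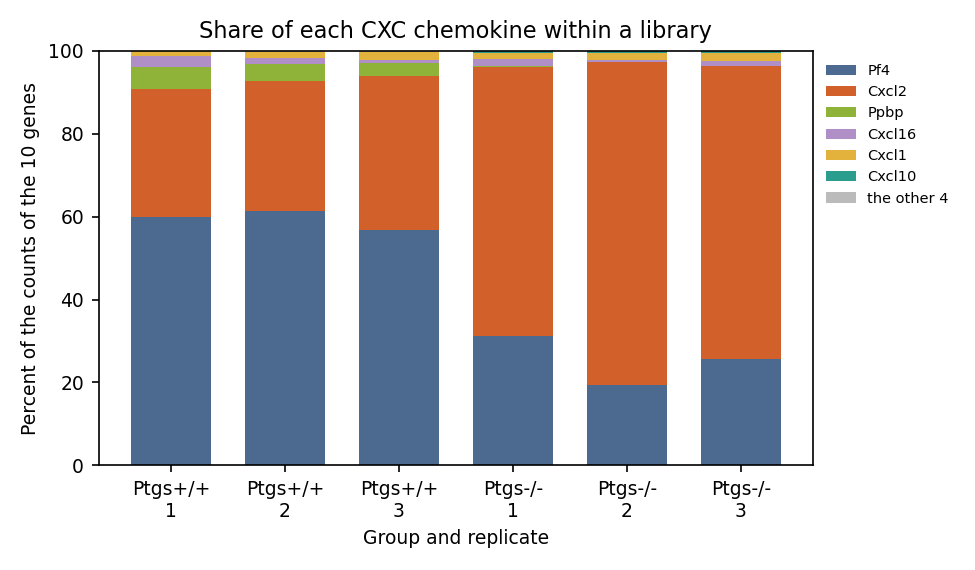
Percent of the counts of the 10 CXC chemokines taken by each gene in each library (bars sum to 100). Pf4 took 56.8% to 61.4% in Ptgs+/+ and 19.4% to 31.1% in Ptgs-/- libraries, and Cxcl2 took 30.7% to 37.0% and 65.0% to 78.0%.

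The design asked how neutrophil-attracting members compare with interferon-induced ones. The 5 neutrophil attractants summed to 6738, 5519 and 4080 CPM in the Ptgs+/+ libraries and to 6151, 10766 and 9250 CPM in the Ptgs-/- libraries, with overlap. Cxcl2 made up most of this sum in every library, and without it the other 4 summed to 1179, 860 and 506 CPM against 155, 256 and 239 CPM, lower in the Ptgs-/- libraries and without overlap. Ppbp made up most of that smaller sum in the Ptgs+/+ libraries, at 972, 604 and 308 CPM against 21.0, 6.55 and 2.07 CPM. The levels of Cxcl1, Cxcl3 and Cxcl5 each overlapped between the groups. Cxcl9 and Cxcl10 summed to 16.4, 0 and 16.2 CPM against 47.3, 45.6 and 81.7 CPM, without overlap. The log2 ratio of the sum of all 5 neutrophil attractants to that of Cxcl9 and Cxcl10, with 1 CPM added to each, was 8.60, 12.43 and 7.89 in the Ptgs+/+ libraries and 6.99, 7.85 and 6.80 in the Ptgs-/- libraries. The mean was 9.64 ± 2.44 (SD, n = 3) against 7.22 ± 0.56 (SD, n = 3), a difference of -2.42 (-5.01 without Cxcl2 and -2.26 without Ppbp), but the gap between the nearest libraries was small. The high value of Ptgs+/+ replicate 2 followed from its 0 counts of Cxcl9 and Cxcl10, and without that library the difference was -1.03. Without Ptgs+/+ replicate 3 it was -3.30.

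Most receptors of these ligands were not detected at this depth. Of 8 CXC receptors, Cxcr1, Cxcr3, Cxcr5, Cxcr6, Ackr1 and Ackr3 had 0 counts in all libraries. Cxcr2, the receptor of the neutrophil attractants, had 203, 644 and 150 counts in the Ptgs+/+ and 114, 447 and 63 in the Ptgs-/- libraries (log2 fold change -0.97, edgeR adjusted p 0.9995). That value was -0.15 without Ptgs+/+ replicate 2 and -1.75 without Ptgs-/- replicate 2. Cxcr4, the receptor of Cxcl12, was the other of the 2 that were tested, and 0 of the 2 were called. Of 5 further CXC ligands, Cxcl12 alone had counts (324 and 40, both in replicates numbered 2), and none was tested.

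Upstream genes were read from the same fit. On the interferon side 0 of 13 genes were called by edgeR's quasi-likelihood test (2 at an unadjusted p under 0.05, as were 8.83% of all genes tested, and 0 by the likelihood ratio test and by DESeq2), 11 were fitted higher in Ptgs-/- TAMs and 2 lower, and the list's median log2 fold change was 0.32 beside 0.018 over all genes tested. Irf1, a transcription factor induced by interferon gamma, had 328, 1093 and 276 counts against 2044, 2321 and 744, with overlap in CPM (log2 fold change 1.46, edgeR adjusted p 0.412). Its log2 fold change was 1.27 without Ptgs+/+ replicate 3 and 2.26 without Ptgs+/+ replicate 2. On the side of NF-κB, IL-1 and TNF, 0 of the 11 tested genes were called by the quasi-likelihood test. Of these 11, 3 had an unadjusted p under 0.05, beside the same 8.83% of all genes tested. The likelihood ratio test and DESeq2 each called 1 of the 11, beside 241 and 328 of all 8793 genes tested. The fit put 8 of the 11 higher and 3 lower, and their median was 0.77.

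Zfp36, which encodes the mRNA-decay factor tristetraprolin, had 930, 418 and 278 counts in the Ptgs+/+ and 1505, 5804 and 2523 in the Ptgs-/- libraries (log2 fold change 2.43, edgeR adjusted p 0.0967). It was called in 5 of the 12 alternative fits, among them the likelihood ratio test (adjusted p 0.0036) and DESeq2 (adjusted p 2.8e-04). Rel, an NF-κB subunit, had 6, 0 and 0 counts against 77, 94 and 30 (log2 fold change 4.93, edgeR adjusted p 0.801; 8.95 without Ptgs+/+ replicate 1, which held all 6 counts of its group). For both genes the groups did not overlap. Il1b, an inducer of neutrophil attractants, had 13667, 12967 and 2971 counts against 10932, 11266 and 5987, with overlap (log2 fold change -0.11, edgeR adjusted p 0.9995; -0.45 without Ptgs+/+ replicate 3). Il1a and Il6 were the 2 genes of the 13 with too few counts. Of the 4 prostaglandin E2 receptors 2 were tested, Ptger2 and Ptger4, and neither was called.

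Among 8 genes that cleave or release chemokines, 1 of 6 tested was called, beside 0.216% of all genes tested. Mmp9, a gelatinase that trims several CXC chemokines, fell from 8080, 9071 and 2219 counts in the Ptgs+/+ to 57, 155 and 56 in the Ptgs-/- libraries. The fitted log2 fold change of Mmp9 was -6.32 ± 0.56 (SE; edgeR adjusted p 0.0041), and it was -6.62 without Ptgs+/+ replicate 3. The call was lost without Ptgs+/+ replicate 1 and without Ptgs-/- replicate 1. Adam10, a protease that sheds Cxcl16, had 1, 35 and 7 counts in the Ptgs+/+ and 455, 429 and 261 in the Ptgs-/- libraries, without overlap (log2 fold change 4.65, edgeR adjusted p 0.300). DESeq2 called it, with an adjusted p of 0.0092, so that test called 2 of the 6, beside 328 of all 8793 genes tested.

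No tested neighbor of the chromosome 5 chemokines was called. Ereg, the epidermal growth factor family member beyond Cxcl2, had 87, 147 and 227 counts in the Ptgs+/+ and 0, 0 and 18 in the Ptgs-/- libraries (log2 fold change -4.53, edgeR adjusted p 0.805). Naaa, a lysosomal amidase gene between Cxcl2 and Cxcl9, had 237, 612 and 154 counts against 701, 3712 and 1805 (log2 fold change 2.46, edgeR adjusted p 0.174). These 2 were named after their values were seen. The other tested neighbors were Areg, Sdad1 and Nup54, at log2 fold changes of -0.27, -1.19 and -0.59.

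None of the genes tested in the marker lists was called by edgeR's quasi-likelihood test (F13a1 was called by the likelihood ratio test, by voom and without the filter on low counts, and Hbb-bs without that filter), and some summed levels did not overlap between the groups. DESeq2 gave F13a1 an adjusted p of 4.0e-04 at a log2 fold change of 1.49, just below the threshold of 1.5. Of 12 macrophage markers, 11 were fitted higher in Ptgs-/- libraries, and 6 had an unadjusted p under 0.05, beside 8.83% of all genes tested. The largest log2 fold change among the 12 was that of Cd14, at 1.39 in edgeR and 1.36 in DESeq2. A call needed 1.5, so the 0 calls by edgeR's 2 tests and by DESeq2 were set by that threshold. DESeq2 gave Itgam, Cd14 and C1qb adjusted p of 0.014, 0.031 and 0.048, and the other markers values above 0.05. Ly6g, the neutrophil antigen removed by the gate, had 0 counts in all libraries, and the 16 neutrophil markers summed to 774 to 988 CPM in Ptgs+/+ and 508 to 619 CPM in Ptgs-/- libraries. Of the 8 tested, 6 were fitted lower and 2 higher in Ptgs-/- libraries. S100a8 and S100a9, alarmins of neutrophils and monocytes, stood at 258 to 310 against 72.4 to 218 CPM and at 199 to 271 against 126 to 141 CPM, without overlap (log2 fold changes -1.07 and -0.74, edgeR adjusted p 0.485 and 0.660). These 2 were named after their values were seen. Csf3r, the G-CSF receptor of neutrophils, had 0 to 205 counts in Ptgs+/+ and 158 to 454 in Ptgs-/- libraries. Hdc, which makes histamine, had 447, 590 and 368 counts against 6, 288 and 66 (log2 fold change -2.33, edgeR adjusted p 0.621), and Retnlg, a resistin-like gene of myeloid cells, 127, 365 and 75 against 674, 954 and 871 (2.11, adjusted p 0.298).

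The 10 fibroblast markers summed to 256 to 298 CPM in Ptgs+/+ and 26.3 to 98.7 CPM in Ptgs-/- libraries, with collagens Col3a1 and Col1a2 at log2 fold changes of -3.43 and -2.86 (edgeR adjusted p 0.609 and 0.563). Endothelial markers summed to 92.9 to 197 against 22.3 to 65.1 CPM, a sum that was mostly Pecam1, which myeloid cells also express (log2 fold change -1.70, edgeR adjusted p 0.456), with Cdh5, Cldn5, Tek and Emcn at 0 in all libraries. Dendritic cell markers summed to 140 to 358 against 64.8 to 134 CPM, mostly Itgax, which macrophages also express, with Zbtb46, Xcr1 and Ccr7 at 0 in all libraries. Melanoma markers overlapped at 49.2 to 99.6 against 52.6 to 92.0 CPM, a sum that was mostly Gpnmb, which macrophages also make. Mlana, Pmel, Tyr, Tyrp1, Dct and Sox10 were at 0 in all libraries. Mitf, which macrophages also make, was at a log2 fold change of 4.80 (edgeR adjusted p 0.703). NK and T cell markers summed to at most 22.0 CPM, and keratinocyte markers to at most 14.7 CPM. The part of these cells in the chemokine levels was not tested.

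**Figure D4:**
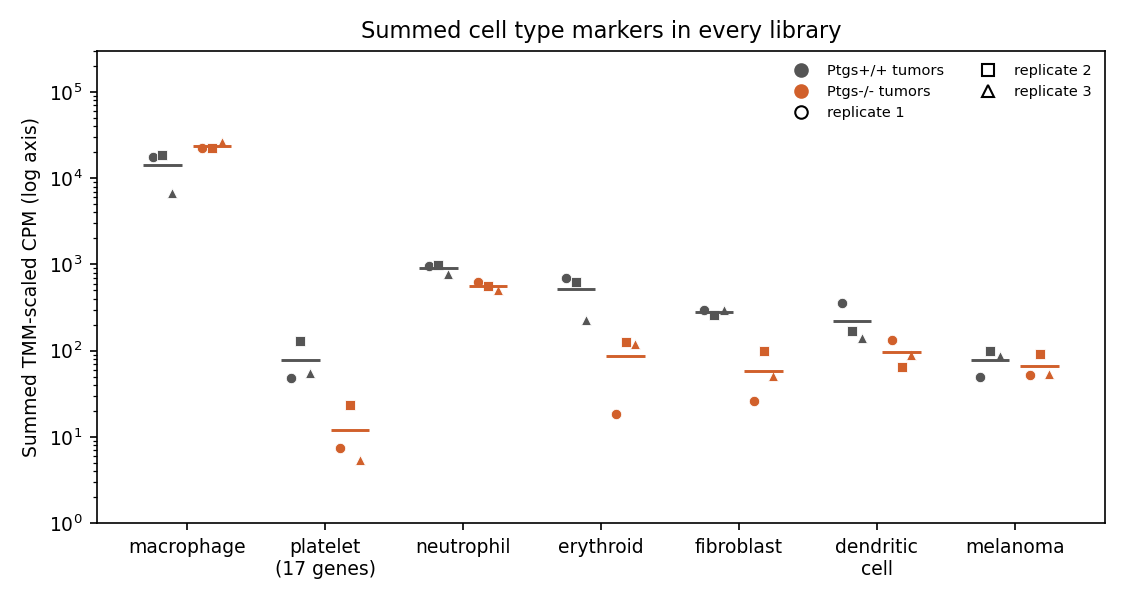
Summed TMM-scaled CPM (log axis) of markers of 7 cell types in each library; points are libraries and lines are group means, and the platelet list is shown without F13a1, Thbs1 and Rgs18 (17 genes). Erythroid, fibroblast, neutrophil, dendritic cell and reduced platelet sums were lower in every Ptgs-/- library than in any Ptgs+/+ library. Macrophage sums were higher there, and melanoma sums overlapped.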

How the data were processed

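RNA from TAMs of 3 Ptgs+/+ and 3 Ptgs-/- tumor pools was sequenced with QuantSeq 3′ FWD. The authors trimmed reads with BBDUK, fqtrim and cutadapt, mapped them to GRCm38 with STAR and counted them per gene of an Ensembl annotation using featureCounts. They deposited raw counts per gene, with no normalization. Tool versions, the strand setting and handling of reads with several alignments are not given in the sources used here.

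One model was fitted to the whole table (R 4.3.3, edgeR 4.0.16): filterByExpr (minimum count 10, total 15), TMM and a two-sided glmQLFTest, adjusted by Benjamini-Hochberg over 8793 genes. Calls needed an FDR no higher than 0.05 and a log2 fold change of at least 1.5 in size. An SE is the size of the log2 fold change over the square root of F. The alternatives were the edgeR likelihood ratio test, DESeq2 1.42.0, RLE scaling, no filter, the replicate block, limma 3.58.1 voom with quality weights, and each library left out.

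The members and gene lists were chosen with earlier results of these data known. Named beyond the members were called list genes, up to 4 per list with non-overlapping groups and a log2 fold change of at least 1.5, receptors of the members, and defining markers. Genes were matched by symbol, with 2 matched by Ensembl identifier because the table uses older symbols. Positions are from GENCODE on GRCm38. Labels give no further separation of samples beyond pools, so p-values measure the spread between these libraries. Protein sequences were not analysed here. Some genes that the naming rule covers are not reported here.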

Additional observations from a re-analysis of the deposited data

How the results depend on the processing

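The number of genes called, 19, was 241 with the likelihood ratio test, 328 with DESeq2, 252 without a filter, 77 with the replicate block, 123 with voom and 0 to 25 with 1 library left out (0 called without Ptgs+/+ replicate 1, where 1231 genes had an unadjusted p under 0.05). RLE scaling left it at 19. Same-numbered libraries did not deviate together (correlations -0.049, -0.022 and -0.022). Neither these values nor the labels settle whether the numbers pair the samples. With the replicate block, which shared all 19 calls, Ppbp was the only chemokine called, and Zfp36 was called as well, as it was by the likelihood ratio test, DESeq2, voom and without a filter. The median of all genes moved to 0.26 with the block, 0.39 with voom and 0.14 without Ptgs+/+ replicate 1.

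Ppbp kept its direction in all 12 fits and lost its call with a library left out in 5 of 6, at -7.12 to -5.51. Pf4 was called at -1.55 by the likelihood ratio test, -1.59 by DESeq2, -1.55 without a filter, -1.58 by voom and -1.73 without Ptgs+/+ replicate 3, in a range of -1.73 to -1.33 with a library left out. Cxcl1 took log2 fold changes of -0.032 with DESeq2, -0.032 with RLE scaling, -0.016 with the replicate block and -0.10 to 0.28 with a library left out. Cxcl3 turned to 0.40 in a range of -5.70 to 0.40. Il1b turned to 0.048 with the replicate block and ranged from -0.45 to 0.14 with a library left out. The log2 ratio of neutrophil-attracting to interferon-induced sums, -2.42, was -4.44 as a mean of log2 CPM, -5.01 without Cxcl2, -2.26 without Ppbp and -1.55 with 5 CPM added to each sum. The platelet sum, at a log2 difference of 1.41, turned to -2.70 without F13a1, Thbs1 and Rgs18 and to -1.87 without Itgb3 as well. Scaling to macrophage markers moved the mean log2 difference of Pf4 to -2.35 and that of Cxcl2 to 0.015. These were added after seeing the data. The cause was not tested. A library's floor of 3 counts lay between 0.357 and 0.647 CPM, which limits Cxcl3, Cxcl5, Cxcl9 and Cxcl14.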
